A study of Mus musculus with 8 samples.

Results

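The genes described here are the LIM-homeodomain transcription factors Isl1, Lhx2, Lhx6 and Lhx8, the LIM-domain-binding cofactors Ldb1 and Ldb2, and the LIM-only proteins Lmo1, Lmo3 and Lmo4. They were taken by symbol from a fixed list of 10 names. Of these, 9 were among the 15705 genes of the file, all 9 passed the filter on low values, and Lhx9 was not analysed here. The samples are poly(A)-selected RNA of the dissected mouse LGE (lateral ganglionic eminence) at stage E18.5 and the LGE is where striatal projection neurons arise. The 4 conditional knockout (cKO) libraries carried Dlx1-Cre with Isl1 flx/flx, so that both Isl1 alleles can be recombined where the Dlx1-driven recombinase is active. The 4 control libraries came from littermates with Isl1 flx/flx and no Cre. All embryos shared the floxed alleles and Cre was present in the cKO alone, so an effect of Cre itself and one of the Isl1 deletion cannot be told apart. The labels give no litter or sex.

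LIM-homeodomain proteins pair zinc-binding LIM domains, which contact other proteins, with a homeodomain, which binds DNA. LDB proteins dimerise and hold LIM domains through a short interaction region, so that they bridge LIM-homeodomain factors into larger complexes. LMO proteins consist of little more than LIM domains, bind LDB proteins without binding DNA themselves, and can thereby compete with LIM-homeodomain factors. In the ventral telencephalon Isl1 is known from striatonigral and cholinergic neurons, Lhx8 from cholinergic neurons, and Lhx6 from interneurons of the medial ganglionic eminence (MGE).

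The sequences before the start sites of Isl1 and Lmo4 are shown because these genes had the smallest p-values of the 9, in opposite directions. Each is the 250 bases before the start that lies farthest upstream, on the gene's own (minus) strand, from RefSeq on GRCm38.p6. Capitals mark TAAT or its reverse complement ATTA, the core that many homeodomains bind.
Isl1, chr13:116309689-116309938: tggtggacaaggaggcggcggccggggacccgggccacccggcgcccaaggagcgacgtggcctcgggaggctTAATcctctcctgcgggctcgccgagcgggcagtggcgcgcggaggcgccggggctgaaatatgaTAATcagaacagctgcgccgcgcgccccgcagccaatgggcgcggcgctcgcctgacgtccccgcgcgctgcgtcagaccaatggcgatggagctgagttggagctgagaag
Lmo4, chr3:144205256-144205505: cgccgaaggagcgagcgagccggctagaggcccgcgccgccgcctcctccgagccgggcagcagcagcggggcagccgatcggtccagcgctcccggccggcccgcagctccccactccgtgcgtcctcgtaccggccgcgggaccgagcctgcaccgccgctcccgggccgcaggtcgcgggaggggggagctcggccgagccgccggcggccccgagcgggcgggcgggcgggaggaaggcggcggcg
The Isl1 window held 2 matches and the Lmo4 window none. The Isl1 window was 71.2% G or C and the Lmo4 window 82.4%. At least 1 match lay in 54.9% of the 32851 RefSeq windows of this length. Of the other members with a window, Lmo1 held 5 matches, Lmo3 and Lhx9 held 2 each, and Lhx2, Lhx6, Lhx8 and Ldb1 held none. The longer motif TAATTA, which is its own reverse complement and overlaps TAAT, occurred in 4.84% of all windows and, among the members, in that of Lmo1 alone, at 1 place. Ldb2 has no window in the table.

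Of the 9 members, 2 rose and 1 fell in the cKO (limma, Benjamini-Hochberg adjusted p under 0.05 over 15698 genes). Over all genes tested 2.87% rose and 3.78% fell, 6.66% in all. Isl1 rose by a log2 fold change of 0.53 and Ldb2 by 0.25, and Lmo4 fell by 0.67 on the log2 scale. The Ldb2 call is borderline and was lost in 11 of 18 alternative fits. The authors' adjustment makes spreads within groups too small to a degree, so the SE, intervals and p-values given here may be too small. With 1 residual degree of freedom fewer, Ldb2 did not pass and fewer of all genes rose. The median gene of the whole table had a log2 fold change of 0.01. Members are given below as the authors' adjusted read values, rounded to whole numbers, which can be compared between libraries for 1 gene. RPKM, which also divides by gene length, is used between genes.

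**Figure D1:**
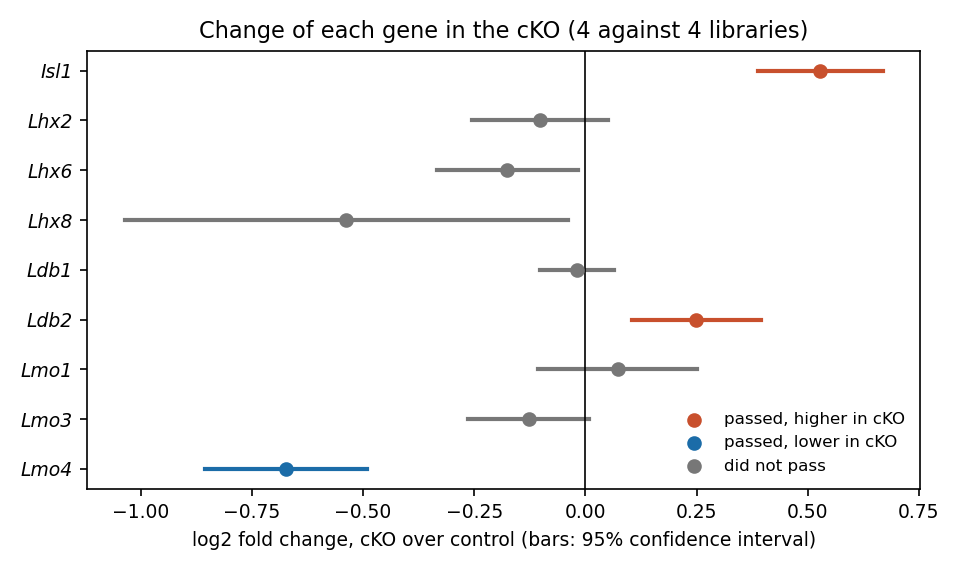
Fitted log2 fold change (x axis) of each of the 9 genes (y axis), cKO over control, as points with 95% confidence intervals not adjusted for the number of genes. The intervals may be too narrow, because the authors' adjustment makes spreads within groups too small to a degree. Isl1 and Ldb2 lie above 0 and passed, Lmo4 lies below 0 and passed, and the 6 genes in grey did not pass.

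Isl1, the targeted gene (ENSMUSG00000042258.13; GRCm38 chromosome 13, 116298281 to 116309689, minus strand, 6 exons in its longest coding transcript), read 3777, 3692, 4186 and 3517 in control replicates 1 to 4. It read 4930, 5377, 5618 and 5971 in cKO replicates 1 to 4. Every cKO library thus lay above every control library. The log2 fold change was 0.53 ± 0.06 (SE, n = 4 per group), with a limma adjusted p of 0.000338, and 1.13% of all genes had a smaller p. The labels do not say which part of Isl1 the recombinase excises, and the value covers the gene as a whole. It cannot check the genotype labels and goes against a plain loss of Isl1 RNA, so control and cKO mean below the libraries so labelled, and each direction rests on those labels. Over all genes, the 4 cKO values lay entirely on one side of the 4 control values in 12.7% of cases. Among the members this held for Isl1, Ldb2 and Lmo4, each with an exact two-sided permutation p of 0.0286, the smallest that 4 against 4 libraries can give.

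Lhx8 (chromosome 3, 154306294 to 154330659), a regulator of cholinergic differentiation, was the least abundant of the LIM-homeodomain members and the most variable between libraries. It read 246, 402, 285 and 239 in control replicates 1 to 4 and 142, 204, 166 and 313 in cKO replicates 1 to 4. Of the cKO libraries 3 lay below every control library, and cKO replicate 4 lay above 3 of the 4 controls. The log2 fold change of -0.54 ± 0.23 (SE) did not pass (limma adjusted p = 0.224). Without cKO replicate 4 it was -0.76, with a limma adjusted p of 0.0428. Without control replicate 2, the highest library, it was -0.38 (limma adjusted p = 0.435).

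Lhx6 (chromosome 2, 36081953 to 36105408), which acts in MGE-derived interneurons downstream of Nkx2-1, read 1997, 2372, 2446 and 2137 in the control libraries. In the cKO it read 1880, 1943, 1867 and 2232. Only cKO replicate 4 reached into the control range, above control replicates 1 and 4, and the log2 fold change of -0.18 ± 0.07 (SE) did not pass (limma adjusted p = 0.215). Lhx2 (chromosome 2, 38339281 to 38369733), known from pallial progenitors and neurons, read 1004, 848, 846 and 844 in the controls. In the cKO it read 785, 913, 798 and 801. A single library stood above the rest in each group, control replicate 1 and cKO replicate 2, and the log2 fold change was -0.10 ± 0.07 (SE, limma adjusted p = 0.489). The 95% interval of the change ran from -0.25 to 0.05, which includes no change.

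Among the cofactor genes, Ldb1 did not pass and Ldb2 passed near the threshold, and the difference between them was not tested. Ldb1 (chromosome 19, 46031570 to 46045214), the broadly expressed member, read 5780, 5305, 5743 and 5644 in the controls. It read 5796, 5482, 5451 and 5459 in the cKO. Its log2 fold change was -0.02 ± 0.04 (SE, limma adjusted p = 0.861), with a 95% interval from -0.10 to 0.07, the narrowest among the members. Ldb1 overlaps Pprc1 on the opposite strand, and it is not stated whether strand was used in counting, so the values of both are uncertain.

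Ldb2 (chromosome 5, 44472132 to 44799680), a paralogue that binds LIM domains in the same way, read 2039, 1736, 1869 and 1839 in the control libraries. In the cKO it read 2095, 2249, 2509 and 2058. The lowest cKO library, replicate 4, was close to the highest control, replicate 1. The log2 fold change was 0.25 ± 0.07 (SE), with a limma adjusted p of 0.0458 that is near the threshold. In RPKM the groups overlapped, with control replicate 1 at 32.2 and cKO replicate 4 at 31.6. The call was lost on that scale (adjusted p = 0.0925), with either other scaling, in the authors' deposited table (adjusted p = 0.0815, in a table where 6.55% of genes passed), and on leaving out any 1 of control replicates 2, 3 and 4 and cKO replicates 2 and 3 (limma adjusted p up to 0.113).

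Of the LIM-only genes, Lmo4 fell. Lmo4 (ENSMUSG00000028266.17; chromosome 3, 144188530 to 144205220, minus strand) read 10519, 11709, 10046 and 9685 in control replicates 1 to 4. It read 5520, 6893, 6602 and 7386 in cKO replicates 1 to 4. The highest cKO library lay well below the lowest control, and cKO replicate 1 was the lowest of all. The control mean was 10490 ± 882 and the cKO mean 6600.2 ± 789.5 (SD, n = 4), or 0.629 times as much. The log2 fold change was -0.67 ± 0.08 (SE), with a limma adjusted p of 0.000411, and it lay between -0.75 and -0.59 in all 18 alternative fits, all of which kept the call.

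Lmo3 (chromosome 6, 138362918 to 138581968), a neuronal LIM-only gene, read 2425, 2512, 2981 and 2486 in the controls. In the cKO it read 2297, 2533, 2328 and 2340. Control replicate 3 stood apart at the top, and the log2 fold change was -0.13 ± 0.06 (SE, limma adjusted p = 0.307). Without that library it was -0.06. Lmo3 overlaps the antisense genes A830011K09Rik and B230110G15Rik, which the file also lists, with the same uncertainty. Lmo1 (chromosome 7, 109138572 to 109175207) was the least abundant member by RPKM in the controls. It read 171, 156, 167 and 156 in the controls and 170, 170, 160 and 184 in the cKO, with a log2 fold change of 0.07 ± 0.08 (SE, limma adjusted p = 0.704). Leaving out 1 library at a time it lay between 0.04 and 0.10, lowest without cKO replicate 4.

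In the control libraries Lmo4 had the highest level per length, at 212 ± 16.9 RPKM (SD, n = 4). It was followed by Ldb1 at 87.2 ± 4.16, Isl1 at 62.2 ± 4.39 and Lmo3 at 51.3 ± 4.64. Below them came Ldb2 at 29.1 ± 2.31, Lhx6 at 25.9 ± 2.08, Lhx2 at 13.02 ± 1.32, Lhx8 at 6.13 ± 1.51 and Lmo1 at 4.32 ± 0.238 RPKM. Between neighbours in this order the 4 control values overlapped for Isl1 with Lmo3 and for Ldb2 with Lhx6, and not for the other pairs. In the cKO Lmo4 remained first, at 133 ± 15.4 RPKM. Isl1, at 89.3 ± 6.77, came next to Ldb1 at 85.6 ± 2.77, with overlapping values. Lmo1, at 4.52 ± 0.240, and Lhx8, at 4.29 ± 1.55, also overlapped there.

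**Figure D2:**
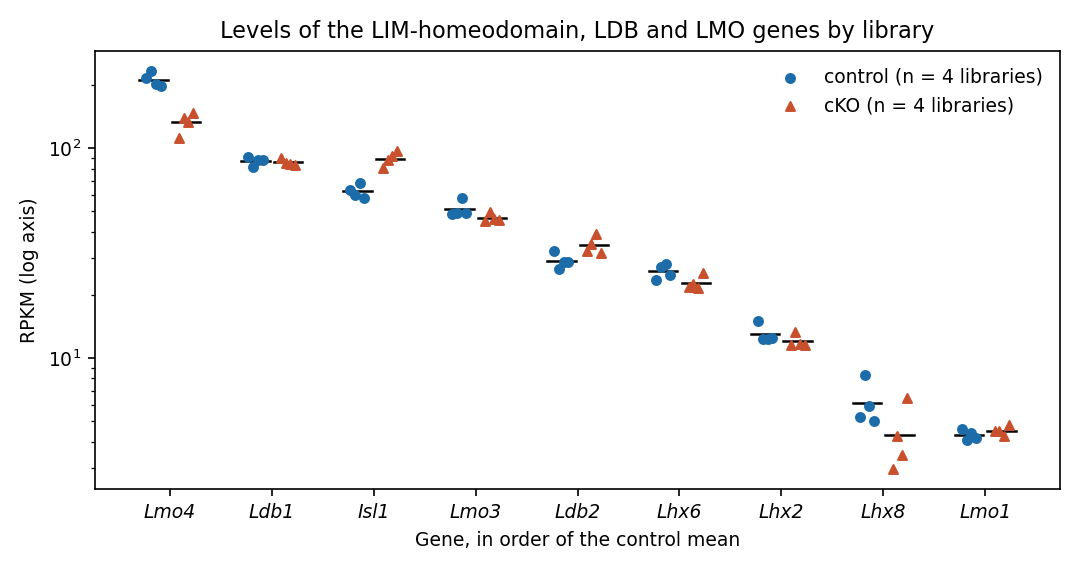
RPKM of each gene (log y axis) in the 4 control libraries (circles) and 4 cKO libraries (triangles), with the group mean as a line and genes ordered by the control mean. Lmo4 is highest in both groups, at means of 212 and 133 RPKM, and Isl1 moves from 62.2 to 89.3.

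Because LMO and LIM-homeodomain proteins share LDB partners, the transcript levels of the classes were set side by side, with no test because these are sums over chosen members. Transcripts of Lmo1, Lmo3 and Lmo4 together came to 2.31 ± 0.236 times those of Ldb1 and Ldb2 in the controls (SD, n = 4 libraries). In the cKO the ratio was 1.53 ± 0.172. The highest cKO library, at 1.72, was below the lowest control, at 2.14. Transcripts of Isl1, Lhx2, Lhx6 and Lhx8 together were 0.924 ± 0.0722 times the LDB sum in the controls and 1.07 ± 0.109 times in the cKO, with overlapping libraries. The LMO sum per LIM-homeodomain sum was 2.50 ± 0.147 in the controls and 1.43 ± 0.0563 in the cKO. The ratio of Lmo4 to Isl1 alone was 3.42 ± 0.389 and 1.48 ± 0.0875. Lmo4 made up 79.2% ± 2.26 of the LMO sum in the controls and 72.1% ± 2.24 in the cKO, and Isl1 58.0% ± 1.74 and 69.5% ± 1.29 of the LIM-homeodomain sum. These are ratios of transcripts, and the Isl1 share includes any transcript of the recombined allele. The LMO ratios largely restate the changes of Lmo4 and Isl1 given above, and the LMO sum leaves out Lmo2, which is described below.

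**Figure D3:**
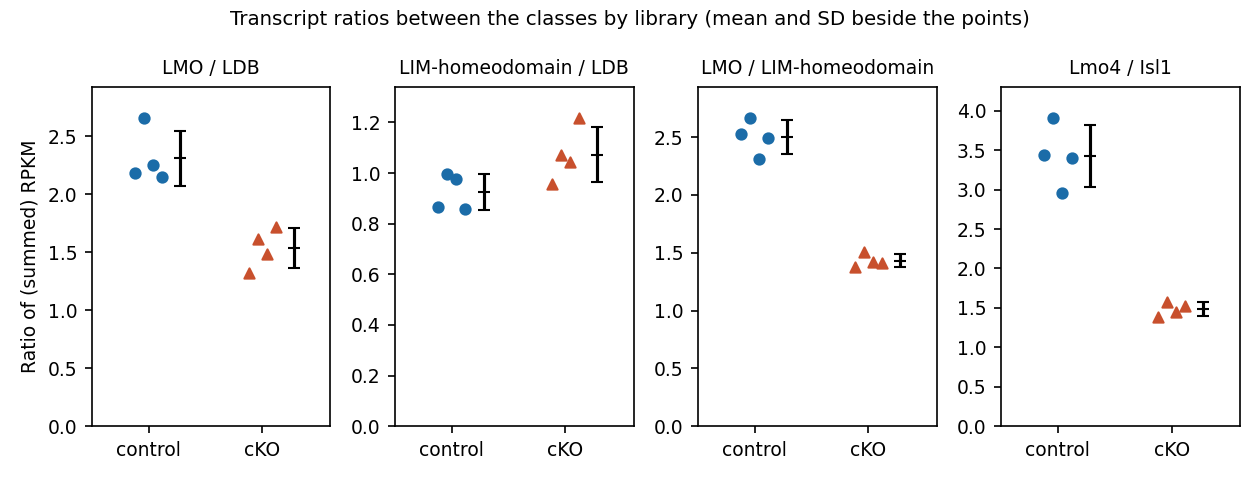
Ratios of summed RPKM between the classes, and of Lmo4 to Isl1, in each of the 4 control libraries (circles) and 4 cKO libraries (triangles), with mean and SD beside them. The LMO to LDB ratio falls from a mean of 2.31 to 1.53 without overlap, while the LIM-homeodomain to LDB ratio overlaps between groups. The LMO sum is mostly Lmo4 and leaves out Lmo2.

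Of 8 other LIM-homeodomain and LMO genes, the file held Lmo2 and Lhx5, and the other 6 were not analysed here. Lmo2 (chromosome 2, 103957986 to 103981878), the LIM-only partner of LDB complexes in blood and endothelial cells, read 664, 581, 623 and 616 in the controls. It read 374, 358, 399 and 378 in the cKO. The groups were far apart relative to their spread, with a log2 fold change of -0.72 ± 0.06 (SE, limma adjusted p = 2.05e-05). Lmo2 thus fell by about as much as Lmo4, from a far lower level, 12.5 to 14.7 RPKM over the controls and 7.78 to 8.68 over the cKO. Lhx5 read at most 6 in any library (log2 fold change -1.24 ± 0.63, limma adjusted p = 0.331).

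Among 7 partners of LDB proteins, 1 rose and none fell (14.3% called, against 6.66% over all genes), with a median log2 fold change of 0.04. Ssbp2, a single-stranded DNA-binding protein that joins LDB complexes and protects LDB from turnover, rose by 0.17 ± 0.03 (SE, limma adjusted p = 0.0069). It did not pass in the authors' deposited table (adjusted p = 0.075). Its relative Ssbp3 was at 0.08 ± 0.04 (limma adjusted p = 0.307). Rlim, a ubiquitin ligase that marks LDB proteins for degradation, was at 0.15 ± 0.05 and did not pass (limma adjusted p = 0.098). Leaving out 1 library at a time, Rlim passed in 1 of 8 fits, without cKO replicate 3 (limma adjusted p = 0.0294). In the others its limma adjusted p reached up to 0.229. Of 32 genes for LIM-domain proteins of other kinds, mainly of the cytoskeleton and cell adhesion, 3 fell and none rose. Their 9.38% compares with 6.66% over all genes, and their median log2 fold change was 0.02. These were Fblim1, a filamin-binding adaptor (-0.37 ± 0.05), Csrp2, a cysteine-rich LIM protein (-0.29 ± 0.06), and its relative Crip2 (-0.22 ± 0.05). The Csrp2 call was lost without control replicate 3 (limma adjusted p = 0.0511), and that of Crip2 without control replicate 1 or 3 or cKO replicate 4 (up to 0.0852) and in the authors' deposited table (0.0826).

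Genes of the programmes in which the factors act were set beside them. Of 10 cholinergic genes, the programme of Isl1 and Lhx8, 7 fell and none rose, with a median log2 fold change of -2.05. Their levels were low, with summed RPKM of 10.6 to 15.1 over the control libraries and 6.02 to 8.12 over the cKO libraries. The size of the median can therefore depend on the value of 1 added before the log. Zic4, a zinc finger factor, had a log2 fold change of -1.56 ± 0.25 (limma adjusted p = 0.00247). Lhx8 itself, at -0.54, did not pass, as given above. Of 12 MGE interneuron genes, the programme of Nkx2-1 and Lhx6, 3 fell and 1 rose, with a median log2 fold change of -0.02. Nkx2-1 was at 0.17 ± 0.12 (limma adjusted p = 0.5). It read 1108 in cKO replicate 4, also the highest cKO library in Lhx8, against 756 to 858 in the other cKO libraries, and without cKO replicate 4 its log2 fold change was 0.05. Npy, a neuropeptide gene, fell by 0.71 ± 0.13 on the log2 scale (limma adjusted p = 0.00495). Of 11 striatonigral genes, Isl1 among them, 6 fell and Isl1 alone rose. The shares called in these 3 lists, 70%, 33.3% and 63.6% in the order given, compare with 6.66% over all genes. Several genes of these lists had been seen in earlier results of the same libraries, so the counts are not independent evidence. In bulk tissue, fewer cells of a type and less RNA per cell cannot be told apart.

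**Figure D4:**
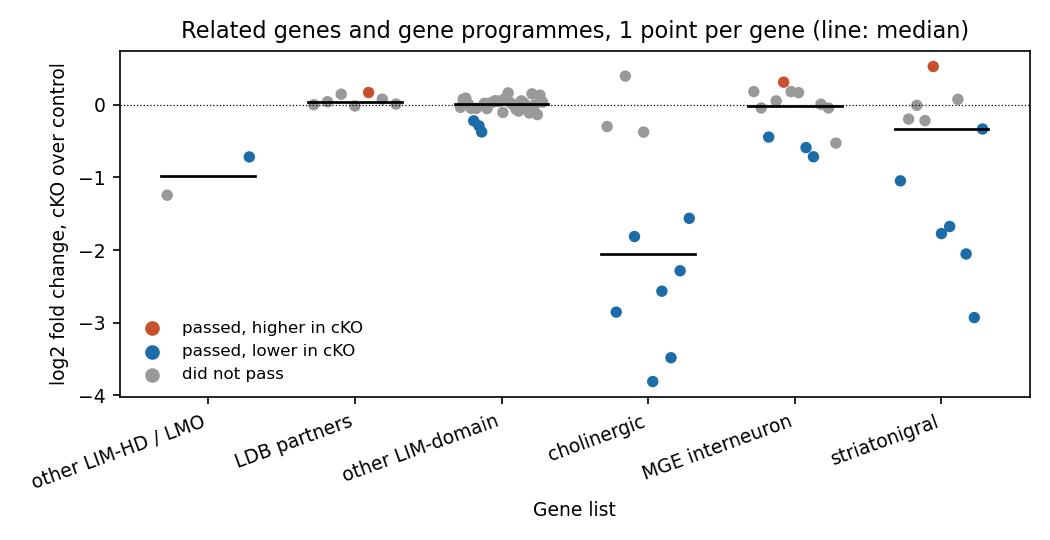
Log2 fold change, cKO over control (y axis), of each measured gene in 6 lists (x axis), coloured by whether it passed, with the list median as a line. The LDB partners and other LIM-domain genes have medians of 0.04 and 0.02, and the cholinergic genes a median of -2.05.

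Markers of other cells were set beside these results. The counts below compare with 6.66% of all genes called in either direction. The 10 striatal markers were all present, with summed RPKM of 782 to 817 over the control libraries and 809 to 852 over the cKO libraries. Of the 10, Meis2 (log2 fold change 0.34), Dlx6 (0.33) and Dlx5 (0.24) rose, and Ppp1r1b (-0.74) and Rarb (-0.40) fell. The call of Dlx6 (limma adjusted p = 0.0219) was lost without control replicate 1 (0.28), cKO replicate 3 (0.29) or cKO replicate 4 (0.29), and without control replicate 3 and cKO replicate 4 together (0.32). Of 6 striatopallidal markers, Adora2a (0.31) and Drd2 (0.20) rose and none fell, with summed RPKM of 179 to 187 over the control and 197 to 203 over the cKO libraries, which did not overlap. Drd2 (limma adjusted p = 0.0367) missed the threshold 6 times when each of the 8 libraries was dropped in turn (log2 fold change 0.16 to 0.22, with control replicates 1 and 3 the exceptions), and also with either other scaling (0.19). Of 10 microglial markers 9 rose and none fell, and their summed RPKM was 34.6 to 41.4 over the control libraries and 57.3 to 76.3 over the cKO libraries. Of 8 blood vessel markers none passed in limma, with summed RPKM of 78.0 to 84.8 in the controls and 80.3 to 95.7 in the cKO. The part of these markers in the values of Isl1, Ldb2, Lmo4 and Lmo2 was not tested. None of the 5 markers of the oligodendrocyte lineage, the 7 measured markers of diencephalic neurons or the 5 of choroid plexus passed. The oligodendrocyte lineage markers all had negative log2 fold changes, from -0.19 to -0.08. Their summed RPKM was 38.511 to 43.9 over the control and 35.5 to 38.509 over the cKO libraries, so the groups met without overlap. The choroid plexus sum was 121 RPKM in control replicate 1, the library highest in Lhx2, and between 1.03 and 5.67 in the other 7. Without that library the log2 fold change of Lhx2 was -0.04. Of 10 pallial markers Bhlhe22 alone rose, by 2.61 ± 0.39 on the log2 scale (limma adjusted p = 0.00151), and none fell. Bhlhe22 was at 0.219 to 1.17 RPKM over the controls and at 3.77 to 4.34 over the cKO. It is part of the pallial sum and raises that sum in every cKO library, including replicate 4. The pallial sum was lowest in control replicate 3, at 1.95 RPKM, the library highest in Lmo3, and next lowest in cKO replicate 4, at 7.95, against 14.5 to 21.7 in the other 6. Without these libraries Isl1 was at 0.53 and Lmo4 at -0.75, and both passed. The part of these markers in the values of Lhx2, Lmo3, Isl1 and Lmo4 was not tested.

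The genes whose pattern over the 8 libraries was most like that of a member were found by Pearson's r of log2 values among 11722 genes with a mean of at least 100. For Isl1 these were Shroom2 (r = 0.993), Irf2bpl (0.990) and Tvp23a (0.986). For Lmo4 they were Gnb4, a G protein subunit gene (0.986), Ldhb (0.984) and 1700037H04Rik (0.981). Gnb4 had a log2 fold change of -0.53, and Shroom2 one of 0.13. For Lhx8 they were Zmat5 (0.983), Cpne4 (0.971) and Negr1 (0.963), and for Ldb2 Tmco6 (0.976), 1700003E16Rik (0.956) and Loxl2 (0.947). No other member was among the 3 most alike of any of the 9. All points share the 8 libraries and the authors' adjustment, and the best of many genes over so few libraries is high by construction.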

How the data were processed

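Groups and replicate numbers came from the sample titles. The submitters' processing notes name STAR, featureCounts and edgeR with build mm10, without versions or counting options. The columns that the authors labelled raw are treated as a score, not as counts, because the values show that the authors scaled and adjusted them before rounding. On a log scale, over 5711 genes with means above 1000, the 8 libraries lacked 1 direction of variation within groups (singular value 0.000241, the next smallest 0.0433). Spreads within groups are therefore too small to a degree, permutation p-values may be too small, and read depth is unknown. The library sums of 23732455 to 24456923 follow from the scaling. The column headers name RPKM and do not give its derivation. For Isl1 and Lmo4 the deposited RPKM matched these adjusted values relative to the library sum and to a fixed gene length. The authors' deposited log2 fold changes, whose sign is cKO over control, and the authors' deposited p-values served as an alternative.

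Log2(value + 1) was compared with limma 3.58.1 (mean trend, R 4.3.3, data.table package, version 1.17.8). Genes needed 4 libraries at 1 or above (15698 genes, 7 left out), with adjusted p under 0.05 as the threshold. Replicates are separate embryos per the labels' protocols. In 10 simulations cKO was compared with control over 15698 genes, 200 of them changed, with the leading residual direction removed. There 67.8% of changes of 0.5, 86.4% of those of 1 and 95.5% of those of 2 (log2) were recovered. Of the simulated calls 13.7% were false, above the nominal 5%. The simulated noise was independent between genes, with spreads taken from the adjusted values. These rates therefore need not hold for the calls given here. The members and lists were chosen with earlier results of these data known. Named genes are the members and, from each list, up to 6 that passed and 2 that did not, by smallest p; Nkx2-1 was named after its value was seen, and not every gene the rule allows is described, 1 of them because it is not reported here, although it stayed in the counts of its list. Coordinates are from GENCODE M21 (GRCm38), and promoters from RefSeq.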

Additional observations from a re-analysis of the deposited data

Results flagged for a closer look

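In 4 of the 18 groups of 4 library values of the members, the highest value stood apart, with a gap to its neighbour that was a larger part of the group's range than Dixon's 95% criterion for 4 values allows. For independent normal values chance alone gives about 1 in 20 groups. The rate for values adjusted as these were is not known, so the 2 shares cannot be compared strictly. Lhx2 was at 1004 in control replicate 1 and at 913 in cKO replicate 2. Ldb1 was at 5796 in cKO replicate 1, and Lmo3 at 2981 in control replicate 3. None of the genes concerned passed the test between groups in limma.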

How the results depend on the processing

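Isl1 and Lmo4 kept direction and call in all 18 alternatives, and Lhx2, Lhx6, Lmo1 and Lmo3 stayed short of the threshold in all 18. Ldb1 also never passed, but its log2 fold change, -0.0453 to -0.00406 on leaving out 1 library at a time, turned to 0.00038 without control replicate 3 and cKO replicate 4. Ldb2 lost its call at a log2 fold change of 0.24 with equal library sums, median-of-ratios scaling or log2(RPKM + 0.1), at 0.25 with 1 residual degree of freedom fewer and in the authors' table, and at 0.29 without control replicate 3 and cKO replicate 4. In each of these 1 member rose in place of 2. Leaving out 1 library at a time, Ldb2 ranged from 0.19 to 0.29 and Lhx8 from -0.76 to -0.38, and 1 to 2 members rose and 1 to 2 fell. Over all genes, 659 to 959 were called (256 to 414 risen, 403 to 556 fallen), lowest without control replicate 4. Without control replicate 3 and cKO replicate 4 there were 610 (216 risen, 394 fallen), and with 1 residual degree of freedom fewer 290 rose. Among other LIM-domain genes, 1 in place of 3 fell without control replicate 3 and cKO replicate 4, an alternative chosen for lists after seeing the data. With fewer libraries fewer genes can pass; for the scalings the cause was not tested. The replicate block gave 1199 calls, and with it Ldb2 had an adjusted p of 0.0266. It changed no call of a member. Deviations of same-numbered libraries from their group means had r of 0.41, -0.17, -0.49 and -0.77. Control replicate 2 with cKO replicate 3 reached 0.75, and control replicate 4 with cKO replicate 2 reached -0.76. The authors' adjustment and the centring within groups shape these values, so they cannot settle whether the numbers pair the libraries. Permutation tests were not repeated with 3 against 3 libraries, which cannot reach the threshold. Read depth is unknown, so no counting error can be given.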
